A study of Drosophila melanogaster with 16 samples.

Results

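Hsp22, Hsp23, Hsp26, Hsp27, Hsp67Ba, Hsp67Bc and l(2)efl are 7 small heat shock protein genes of Drosophila melanogaster, and their transcripts were followed here in single adult flies kept in normal air or in chronic hypoxia (CH). Every probe set of the array that was annotated to one of these genes was taken, whatever its values. This gave 9 probe sets for 6 of the 7 genes, of 18890 probe sets measured, while no probe set was named for Hsp67Ba. The genes were chosen by their family, with their measured log2 differences between these same groups of flies already known, so the differences given for them are a description, without a p-value of their own. Where a gene has several probe sets they are numbered here. Both probe sets of Hsp22 also match its neighbour CG4456, so their values belong to either gene or to both.

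Small heat shock proteins are built around the alpha-crystallin domain and assemble into oligomers. They hold unfolding proteins in solution without using ATP until ATP-driven chaperones such as Hsp70 refold them. In the fly most of them are switched on by heat shock factor (Hsf) when proteins are damaged, and each has its own place in the cell. Hsp22 works in mitochondria, Hsp27 in the nucleus, and Hsp23 and Hsp26 in the cytosol. Hsp67Bc acts with Starvin (stv) in the clearance of misfolded proteins by autophagy, and l(2)efl is related to the alphaB-crystallin of vertebrate muscle.

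The study asked how flies without dystrophin respond to CH. Transcript levels were measured in 16 whole flies, 1 fly per array, in 4 groups of 4. CH-dmDys flies were carried up Mount McKinley for 16 days to 6194 m, in hypobaric hypoxia at 16.3% to 9.9% oxygen, and normoxic dmDys flies stayed in normal air. CH-WT flies were kept in a normobaric chamber that followed the oxygen levels of the climb, and normoxic WT flies stayed in normal air. The labels give 2 weeks of exposure for every group. The age is given as 3 to 5 days, which cannot be the age after such an exposure. In dmDys flies the tubulin promoter drives Gal4 in all tissues, and Gal4 drives an RNA interference construct against all isoforms of dystrophin. WT flies carry the tubulin-Gal4 driver alone. The 2 kinds of hypoxia were each given to 1 genotype, so genotype and kind of hypoxia cannot be told apart between CH groups. CH-dmDys flies also travelled, while normoxic dmDys flies did not. The paper does not discount some influence of temperature, humidity or barometric pressure on the mountain profile. It proposes hypoxia as the major factor, from quantitative PCR (qPCR) of selected genes in dmDys flies kept in normobaric hypoxia. On the arrays these factors and oxygen cannot be told apart. As each array holds a whole fly, fewer cells of a type and less RNA per cell cannot be told apart either.

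Several facts of the arrays touch the values below. The lowest log2 value was 2.06 on all dmDys arrays and 1.95 on all WT arrays, and the upper quartile was 10.18 to 10.28 on dmDys arrays and 8.99 to 9.09 on WT arrays. Differences between the genotypes are therefore given both for the deposited values and after quantile normalization over all 16 arrays. The brightest dystrophin probe set overlapped between the genotypes, at 8.21 to 9.13 in CH-dmDys, 5.89 to 9.62 in normoxic dmDys, 7.97 to 9.27 in CH-WT and 7.67 to 9.82 in normoxic WT, so the arrays did not check the genotype labels. The male accessory gland list (5 of 5 genes found) had medians of 13.02 to 14.68 in all flies, and the egg and yolk list (5 of 5) lay at the background, at 2.08 to 2.22. The testis list (10 of 10) had a median of at least 13 in 14 flies, against 2.36 in CH-WT replicate 7 and 2.24 in normoxic WT replicate 5. Groups follow the titles of the samples, and some other labels conflict with them. The source names of all 4 normoxic dmDys flies hold both CH and normoxic, while their treatment field gives room air. CH-dmDys replicate 5 has no strain, CH-WT replicate 5 has the number 3 in another field, and CH-WT replicate 3 carries dmDys as its strain. Without CH-WT replicate 3 the differences between CH-WT and normoxic WT of Hsp22 (probe set 1), Hsp23, Hsp26 and Hsp27 were 2.65, 1.64, 2.53 and 1.71 on the log2 scale, near the values with it given below.

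In dystrophin-deficient flies, CH went with lower levels of 5 of the 6 measured small heat shock protein genes. Hsp26, Hsp22 (probe set 1), Hsp23 and Hsp27 were between 5.65- and 12.2-fold lower in CH-dmDys than in normoxic dmDys flies, Hsp22 probe set 2 was 2.16-fold lower, and Hsp67Bc lay at the background in CH-dmDys. The sixth gene, l(2)efl, stayed bright in both groups. In WT flies the same 5 genes had higher values in CH than in normal air, by 3.20- to 6.07-fold, counting probe set 1 for Hsp22. Probe set 2, the brighter for Hsp22, overlapped between the WT groups. The test used across the array, given below, called no member in WT flies. The paper's own test, Significance Analysis of Microarrays (SAM), listed the same 5 genes as higher in CH-WT. All levels below are log2 of the GCRMA intensity of a probe set, so a difference of 1 is a 2-fold change. Levels of different probe sets cannot be set against each other.

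Hsp26, a cytosolic chaperone, was lower in every CH-dmDys fly than in any normoxic dmDys fly. Its probe set read 10.72, 10.79, 10.48 and 10.96 in CH-dmDys replicates 5, 6, 7 and 8, against 14.31, 14.33, 14.47 and 14.26 in normoxic dmDys replicates 6, 7, 8 and 10. The difference was -3.61 ± 0.11 (SE, n = 4 and 4), 12.2-fold lower in CH-dmDys. In WT flies the order was the other way round, with all CH flies above all normoxic flies. CH-WT replicates 3, 5, 6 and 7 read 12.20, 11.89, 12.71 and 12.36, and normoxic WT replicates 2, 3, 5 and 6 read 9.66, 9.79, 9.98 and 9.75. This is a difference of 2.50 ± 0.18 (SE, n = 4 and 4), or 5.64-fold.

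Hsp23, the other cytosolic member, showed the same order of groups. It read 10.71, 10.93, 10.60 and 10.97 in CH-dmDys, against 13.47, 13.70, 13.75 and 13.77 in normoxic dmDys, a difference of -2.87 ± 0.11 (SE, n = 4 and 4). In CH-WT it read 12.11, 11.55, 12.07 and 12.07, against 10.31, 10.00, 10.88 and 9.86 in normoxic WT, a difference of 1.69 ± 0.25 (SE, n = 4 and 4). No fly of a CH group overlapped with a normoxic fly of its genotype. The lowest CH-WT fly, replicate 5, lay apart from the other 3.

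Hsp27, the nuclear member, kept the groups apart in both genotypes. Its levels were 11.63, 11.35, 11.35 and 11.20 in CH-dmDys, against 13.94, 14.00, 13.77 and 13.81 in normoxic dmDys. The CH-dmDys flies were thus 5.65-fold lower, at a log2 difference of -2.50 ± 0.10 (SE, n = 4 and 4). In CH-WT flies it read 12.42, 12.34, 12.65 and 12.70, against 10.83, 10.79, 11.10 and 10.67 in normoxic WT flies. The difference of 1.68 ± 0.12 (SE, n = 4 and 4) was close to that of Hsp23, and again no fly of one group reached the other.

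Hsp22, the mitochondrial member, was read by 2 probe sets that did not behave alike. Probe set 1 followed the cytosolic genes. It read 10.01, 10.19, 10.14 and 10.09 in CH-dmDys, against 13.19, 13.28, 13.76 and 13.40 in normoxic dmDys, a difference of -3.30 ± 0.13 (SE, n = 4 and 4). In CH-WT it read 11.45, 11.35, 11.75 and 11.84, against 8.94, 8.92, 9.71 and 8.41 in normoxic WT, a difference of 2.60 ± 0.28 (SE, n = 4 and 4).

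**Figure D1:**
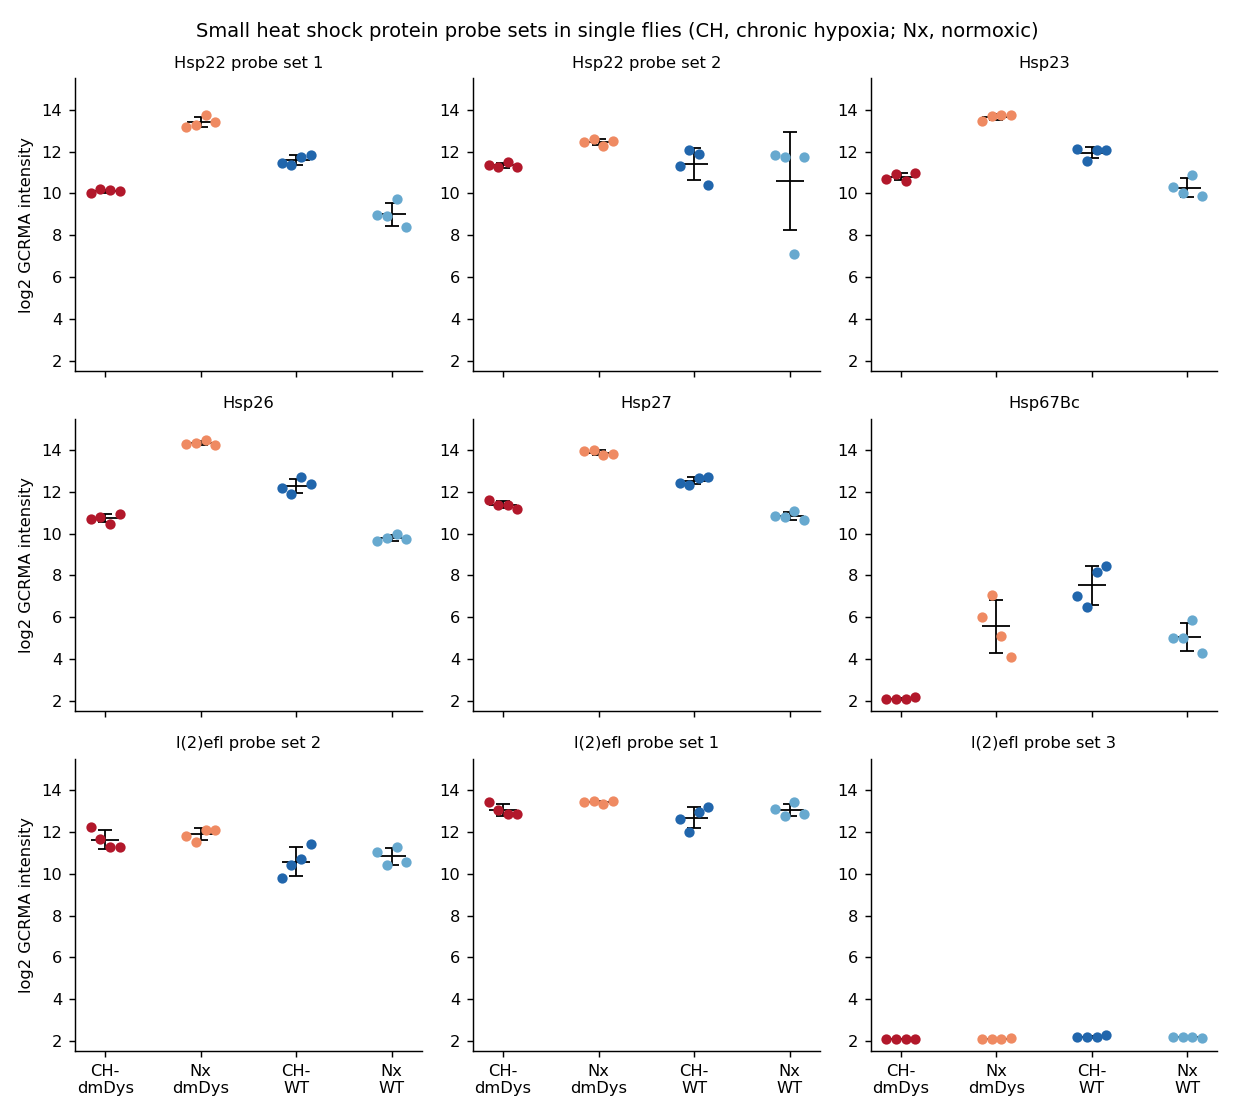
Log2 GCRMA intensity (vertical axis) of the 9 probe sets of the small heat shock protein genes in each fly (points), in 4 groups of 4 flies; black bars give the mean ± SD. Hsp23, Hsp26, Hsp27 and Hsp22 probe set 1 are lower in CH-dmDys than in normoxic dmDys and higher in CH-WT than in normoxic WT without overlap, while l(2)efl is not.

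Hsp22 probe set 2 moved less in dmDys flies and did not follow the others in WT flies. It read 11.35, 11.24, 11.48 and 11.28 in CH-dmDys, against 12.44, 12.61, 12.25 and 12.50 in normoxic dmDys, which is a difference of -1.11 ± 0.09 (SE, n = 4 and 4). In CH-WT replicates 3, 5, 6 and 7 it read 11.30, 12.07, 11.89 and 10.40, and in normoxic WT replicates 2, 3, 5 and 6 it read 11.82, 11.73, 7.10 and 11.76. The lowest fly of each WT group is the fly that lacked testis transcripts. Over all 8 WT flies the difference was 0.81 ± 1.19 (SE, n = 4 and 4), and without those 2 flies it was -0.02 (n = 3 and 3). Probe set 1 had its highest normoxic WT value, 9.71, in the same replicate 5, and its difference was 2.76 without the 2 flies. The summed level of the 10 testis genes ran from 10.59 to 16.58 in CH-WT and from 10.71 to 16.63 in normoxic WT, as log2 of the sum. The part of testis transcripts, or of CG4456, in the values of probe set 2 was not tested.

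**Figure D2:**
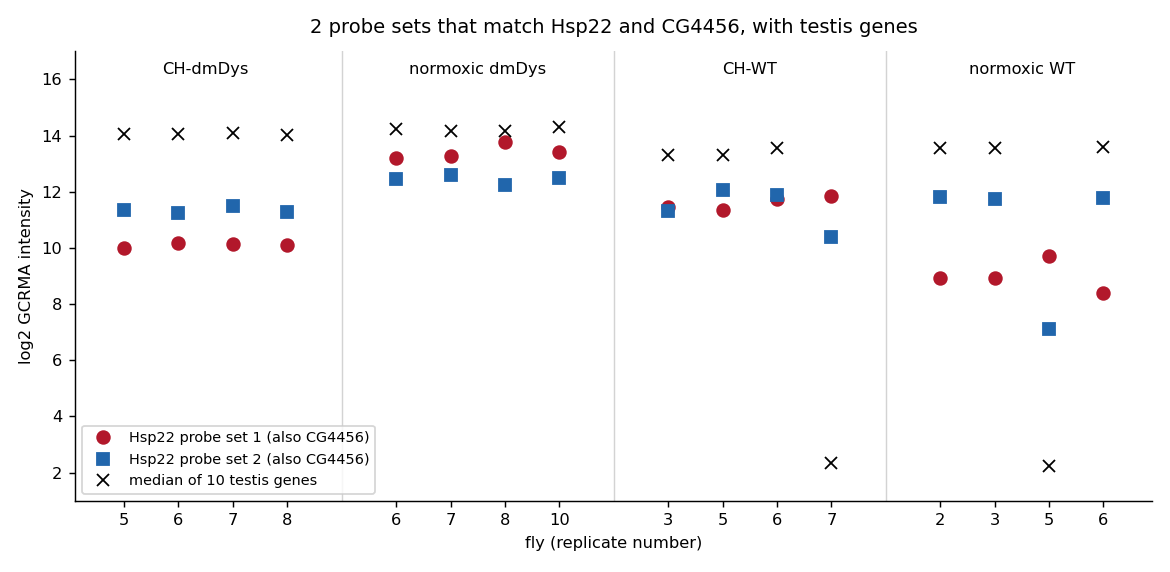
Log2 GCRMA intensity (vertical axis) in each of the 16 flies (horizontal axis, by group and replicate) of the 2 probe sets that match Hsp22 and CG4456 (red circles, probe set 1; blue squares, probe set 2) and the median of 10 testis genes (crosses). In CH-WT replicate 7 and normoxic WT replicate 5 the testis median is 2.36 and 2.24, and probe set 2 has the lowest values of those groups, 10.40 and 7.10.

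Hsp67Bc, the partner of Starvin, differed in the same directions, with a wider spread between flies. In all 4 CH-dmDys flies it lay at the background of the array, at 2.08, 2.08, 2.08 and 2.16. Normoxic dmDys flies read 6.02, 7.07, 5.10 and 4.09, all above the CH-dmDys flies. The difference of the measured means was -3.47 ± 0.62 (SE, n = 4 and 4). With every value under a log2 of 4 raised to 4, Hsp67Bc was lower in CH-dmDys by at least 1.57 on the log2 scale, and it then no longer passed the test used across the array. CH-WT flies read 6.99, 6.50, 8.15 and 8.47, against 5.00, 5.00, 5.88 and 4.28 in normoxic WT flies, a difference of 2.49 ± 0.55 (SE, n = 4 and 4).

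For l(2)efl, the relative of alphaB-crystallin, the groups differed little under CH. Its brightest, probe set 1, read 13.46, 13.03, 12.86 and 12.84 in CH-dmDys, against 13.46, 13.49, 13.36 and 13.47 in normoxic dmDys. The log2 difference was -0.40 ± 0.14 (SE, n = 4 and 4; 95% interval -0.74 to -0.05), and CH-dmDys replicate 5 overlapped with the normoxic flies. In CH-WT it read 12.62, 12.01, 12.96 and 13.18, against 13.08, 12.79, 13.42 and 12.85 in normoxic WT, a difference of -0.34 ± 0.28 (SE, n = 4 and 4; 95% interval -1.02 to 0.34). Probe set 2 overlapped in both genotypes, with a difference of -0.26 in dmDys (95% interval -0.90 to 0.37) and -0.26 in WT (95% interval -1.17 to 0.66). Probe set 3 lay at the background in all 16 flies, between 2.08 and 2.26, and carries no level.

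Across the whole array, limma was fitted to each comparison. A call needed a log2 difference of at least 1 in either direction, and a p under 0.05 after Benjamini-Hochberg adjustment over all probe sets. In CH-dmDys against normoxic dmDys, 6 of the 9 probe sets were called lower and none higher, against 4.08% of all 18890 probe sets called lower. Without overlap between the groups, 7 of 9 lay below, against 15.2% of all probe sets. The 7 are the 6 called ones and l(2)efl probe set 3, whose values all lay at the background. The median log2 difference of the 9 was -2.50, while the median over all probe sets was 0 to 2 decimals. As these genes were chosen with the contrast known, nothing further is read from this count.

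In CH-WT against normoxic WT, limma called none of the 9 probe sets, and 0% of all probe sets. At an unadjusted p under 0.05 it named 5 of the 9, namely Hsp22 (probe set 1), Hsp23, Hsp26, Hsp27 and Hsp67Bc, against 1.23% of all probe sets. The same 5 lay above normoxic WT in CH-WT without overlap, against 0.476% of all. With quantile normalization over the 16 arrays, 2 probe sets of the whole array (0.0106%) were called, both higher, and both were members, Hsp26 and Hsp27. With the spread taken from 1 fit over all 4 groups, 10 probe sets of the array were called, among them Hsp22 (probe set 1), Hsp23, Hsp26 and Hsp27.

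The difference between the 2 responses to CH was taken from the interaction in a fit of all 16 flies, as the log2 difference in dmDys minus that in WT. It was called for 5 of the 9 probe sets, all lower, against 0.439% of all probe sets called lower. The interaction was -6.10 ± 0.21 for Hsp26, -5.90 ± 0.32 for Hsp22 (probe set 1), -4.56 ± 0.28 for Hsp23, -4.18 ± 0.16 for Hsp27 and -5.96 ± 0.84 for Hsp67Bc (SE, n = 4 per group). For Hsp67Bc it was -4.05 with values under a log2 of 4 raised to 4, and its call was lost with array weights and with the 3' to 5' measure described below as a covariate. The 95% interval for l(2)efl probe set 1 was -0.76 to 0.64. Quantile normalization over 16 arrays left the same 5 called, against 0.323% of all probe sets. As the 2 genotypes met different kinds of hypoxia, genotype and kind of hypoxia cannot be told apart in this term. The paper's qPCR also covered dmDys flies in normobaric hypoxia, where Hsp26, Hsp27 and Hsp67Bc were lower and Hsp23 did not differ significantly. The differences were smaller there than in hypobaric hypoxia.

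**Figure D3:**
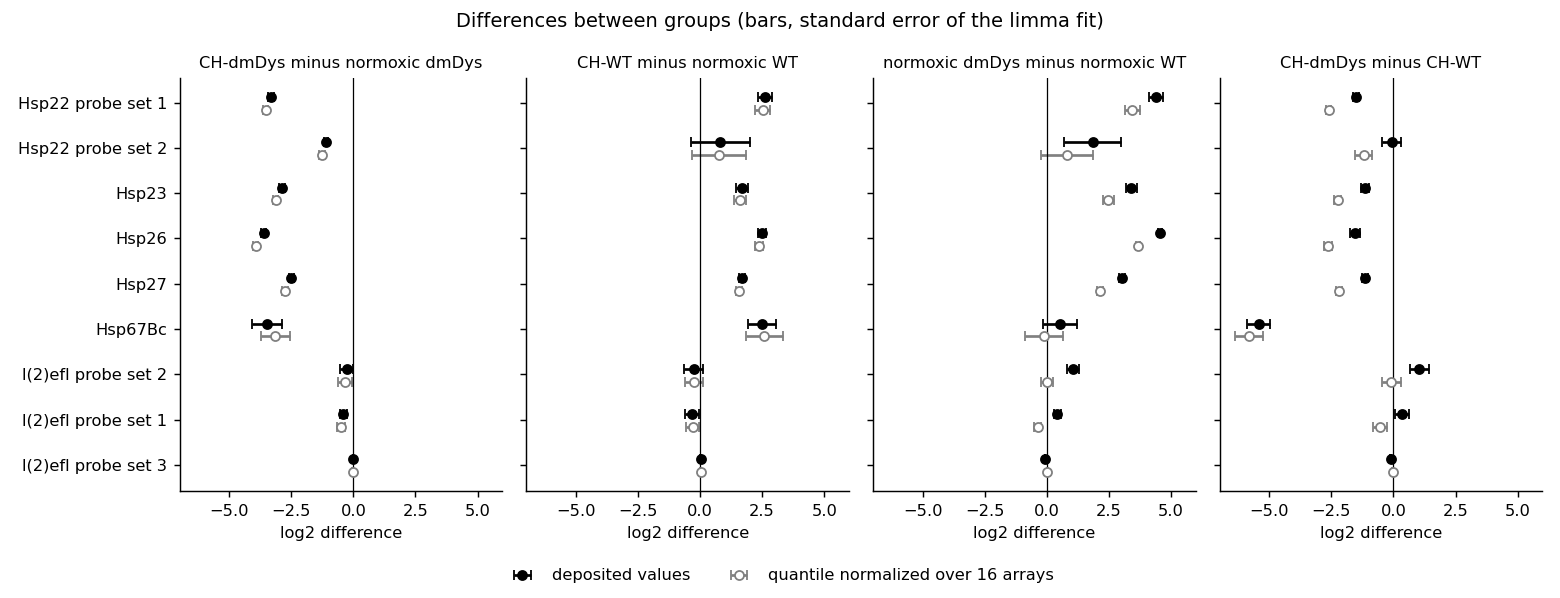
Log2 differences (horizontal axes) of the 9 probe sets in 4 comparisons, from the deposited values (filled) and after quantile normalization over 16 arrays (open); bars give the standard error of the limma fit, 4 flies per group. Under CH the differences of Hsp22 (probe set 1), Hsp23, Hsp26, Hsp27 and Hsp67Bc run from -3.61 to -2.50 in dmDys and from 1.68 to 2.60 in WT; the 2 settings part in the comparisons between genotypes.

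The genotypes already differed in normal air. In normoxic dmDys against normoxic WT, 5 of the 9 probe sets were called higher, against 14.7% of all probe sets. Hsp26 differed by 4.55 ± 0.08, Hsp22 (probe set 1) by 4.41 ± 0.29, Hsp23 by 3.41 ± 0.23 and Hsp27 by 3.03 ± 0.10 on the log2 scale (SE, n = 4 and 4). After quantile normalization these 4 were still called, with 3.22% of all probe sets called higher, and their differences were 3.67, 3.45, 2.48 and 2.15. In each of the 4, every normoxic dmDys fly was above every other fly of the series.

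The fifth call in that comparison, l(2)efl probe set 2, depended on the scaling. This probe set read 11.79, 11.54, 12.12 and 12.12 in normoxic dmDys, against 11.04, 10.44, 11.30 and 10.58 in normoxic WT, a difference of 1.05 ± 0.24 (SE, n = 4 and 4). After quantile normalization its difference was 0.00 to 2 decimals and not called. For the brightest probe set of l(2)efl the sign turned, at 0.41 with the deposited values and -0.37 with quantile normalization. Hsp67Bc overlapped between the genotypes in normal air, with a difference of 0.53 ± 0.69 (SE, n = 4 and 4; 95% interval -1.15 to 2.20), or -0.10 with quantile normalization.

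In CH the genotypes stood the other way round for 4 of the genes. In CH-dmDys against CH-WT, 5 of the 9 probe sets were called lower, against 4.93% of all probe sets. The differences were -1.56 ± 0.19 for Hsp26, -1.49 ± 0.12 for Hsp22 (probe set 1), -1.15 ± 0.16 for Hsp23 and -1.15 ± 0.12 for Hsp27 (SE, n = 4 and 4), and quantile normalization gave -2.63, -2.60, -2.24 and -2.18. Hsp67Bc was lower in CH-dmDys by at least 3.53 on the log2 scale with values under 4 raised to 4. For l(2)efl probe set 1 the difference of 0.36 ± 0.28 (SE, n = 4 and 4) turned to -0.55 with quantile normalization.

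For Hsp22 (probe set 1), Hsp23, Hsp26 and Hsp27, the order of the 4 group levels was therefore the same on the deposited values. Normoxic dmDys was highest, CH-WT came next, CH-dmDys followed, and normoxic WT was lowest. The lower end of this order depended on the scaling. CH-dmDys lay above normoxic WT by 0.94 for Hsp26, 1.11 for Hsp22 (probe set 1), 0.54 for Hsp23 and 0.53 for Hsp27 on the log2 scale, but quantile normalization over 16 arrays turned these to -0.27, -0.08, -0.64 and -0.60. The group means kept the 2 upper places under both scalings. Also on the deposited values, the highest Hsp23 level of a normoxic WT fly (10.88) lay among those of CH-dmDys flies, at 10.60 to 10.97. For Hsp26, Hsp27 and Hsp22 (probe set 1) no neighbours in the order overlapped on the deposited values. Hsp67Bc had another order, in which CH-WT had the highest mean, normoxic dmDys and normoxic WT overlapped, and CH-dmDys alone lay at the background.

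Hsp67Bc, CG4456, Hsp22, CG4461, Hsp26, Hsp67Ba, Hsp23 and Hsp27 lie side by side on chromosome arm 3L in the RefSeq annotation of Release 6 of the genome, with an antisense RNA, asRNA:CR43481, between Hsp67Ba and Hsp23. The cluster thus holds all members other than l(2)efl. CG4461 lies between Hsp22 and Hsp26 and also encodes an alpha-crystallin domain, but is not a member of the set. Its probe set read 12.63, 12.13, 12.50 and 12.30 in CH-dmDys, against 13.04, 12.53, 13.19 and 12.98 in normoxic dmDys, and the difference of -0.54 ± 0.18 (SE, n = 4 and 4) was not called. In WT flies the difference of CG4461 was 0.06 ± 0.37 (SE, n = 4 and 4).

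**Figure D4:**
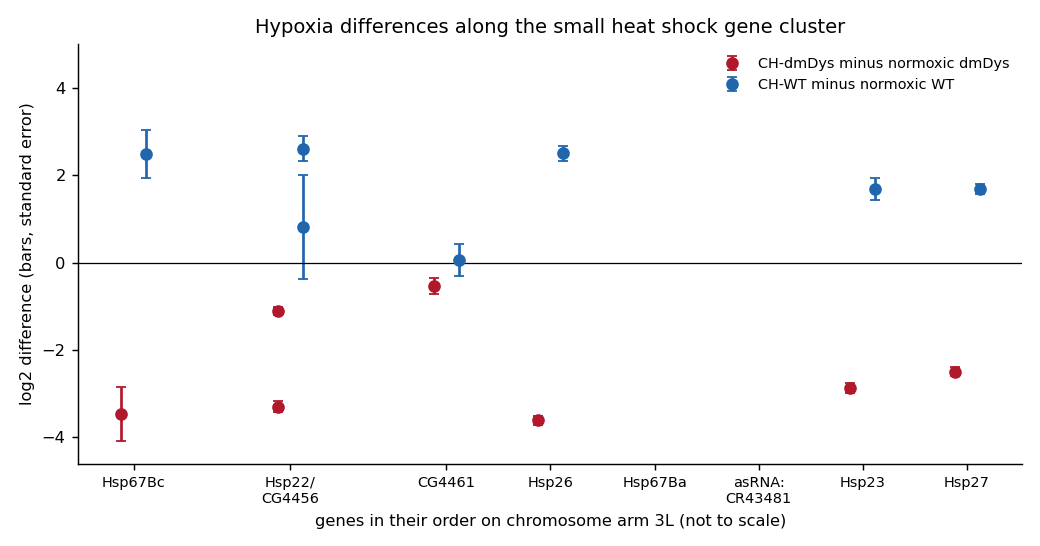
Log2 differences under CH (vertical axis; bars, standard error; 4 flies per group) along the small heat shock gene cluster, with genes in their order on chromosome arm 3L and not to scale. Probe sets on either side of CG4461 lie at -3.30 and -3.61 in dmDys (Hsp22 probe set 1 and Hsp26), and CG4461 lies at -0.54; Hsp67Ba and asRNA:CR43481 have no value.

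Other genes of the heat shock response were counted from lists, each gene by its brightest probe set. Of the 7 probe sets for 10 other inducible heat shock genes, 5 fell in CH-dmDys against normoxic dmDys and none rose, against 4.08% of all probe sets called lower. Their median log2 difference was -1.67. Of 3 probe sets shared by copies of Hsp70, whose proteins refold what small heat shock proteins hold, 2 had the largest differences of the list. The probe set of Hsp70Aa and Hsp70Ab read 3.33, 3.96, 2.80 and 4.33 in CH-dmDys, against 14.57, 14.77, 14.85 and 14.90 in normoxic dmDys, and that of Hsp70Ba and Hsp70Bbb differed by -11.4 ± 0.30 (SE, n = 4 and 4). CH-dmDys was near the background in both, and the copies of Hsp70 cannot be told apart by these probes. The probe set of Hsp70Bb and Hsp70Bc overlapped between the groups, with a difference of -0.29 ± 0.69 (SE, n = 4 and 4).

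Among the partners of small heat shock proteins, Hsp68, an inducible relative of Hsp70, fell by 4.62 on the log2 scale, stv by 1.67 and the Hsp40 co-chaperone DnaJ-1 by 1.58. For stv, the partner of Hsp67Bc, CH-dmDys flies read 12.22, 12.04, 12.10 and 12.11, against 13.86, 13.90, 13.72 and 13.66 in normoxic dmDys flies. The gene of the shared activator, Hsf, differed by -0.45 ± 0.08 (SE, n = 4 and 4), under the threshold of 1, and its groups did not overlap. In CH-WT against normoxic WT none of the 7 was called, and 5 had an unadjusted p under 0.05, against 1.23% of all probe sets. Their median difference in WT was 0.75, with 3.76 for Hsp70Ba and Hsp70Bbb, 3.30 for Hsp70Aa and Hsp70Ab and 2.32 for Hsp68.

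Chaperones made without stress were set beside them. Of 13 constitutive chaperone genes none was called under CH in dmDys or in WT flies. In dmDys 4.08% of all probe sets were called lower. At an unadjusted p under 0.05, limma named 8 in dmDys (32.0% of all probe sets) and 0 in WT. The medians were -0.24 in dmDys and 0.11 in WT. Without overlap, 7 of the 13 lay below in CH-dmDys, against 15.2% of all probe sets, and 1 lay above. With quantile normalization over 16 arrays, 1 of the 13 was called lower in CH-dmDys, with 846 of all 18890 probe sets. Of 3 other genes with an alpha-crystallin domain that were found on the array, 1 was called higher in CH-dmDys than in normoxic dmDys, where 5.46% of all probe sets were called higher. This was CG7409, at 13.92, 14.09, 13.80 and 14.12 in CH-dmDys, against 12.39, 11.59, 13.15 and 12.62 in normoxic dmDys, a difference of 1.55 ± 0.32 (SE, n = 4 and 4), opposite in sign to those of the 6 called member probe sets. The call of CG7409 was lost without CH-dmDys replicate 6, 7 or 8, without normoxic dmDys replicate 6, with the 3' to 5' measure described below as a covariate, and with a replicate block. CG13133 lay at the background throughout.

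The probe sets nearest in pattern were sought among those with 1 gene symbol, by Pearson's r over 16 flies with the mean of the 6 genes' brightest probe sets, all centred within each genotype. Hsp68 (0.975), DnaJ-1 (0.968), stv (0.924), lncRNA:alphagamma-element:CR32865 (0.918) and Gclm (0.900), a subunit of the enzyme that makes the precursor of glutathione, came first. Of the members themselves, Hsp26 had 0.986, Hsp27 0.985, Hsp23 0.964, Hsp22 (probe set 1) 0.959 and Hsp67Bc 0.938, and Hsp22 probe set 2 had 0.451. For l(2)efl it was 0.086, 0.232 and 0.393. The flies share their groups, so these values describe mainly the order of the groups.

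Within the groups the genes varied together less closely. With each probe set centred on its group mean, the mean of r over all 36 pairs of probe sets was 0.26 (16 flies). Between Hsp22 (probe set 1), Hsp23, Hsp26, Hsp27 and Hsp67Bc, r lay between 0.37 and 0.81, and without the 2 WT flies that lacked testis transcripts between 0.08 and 0.60 (14 flies). The 2 probe sets of Hsp22 went against each other, at -0.79 with all flies and -0.16 without those 2. All probe sets of a fly share an array and its scaling.

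A measure of how evenly transcripts were read from end to end differed with the groups as well. The 3' minus 5' log2 difference of eIF-4a, Act5C and Gapdh, which the array reads at both ends, averaged 3.29 ± 0.54 in CH-dmDys and 8.46 ± 2.01 in normoxic dmDys, and 6.07 ± 1.06 in CH-WT and 7.16 ± 0.16 in normoxic WT (SD, n = 4 each). It did not overlap between CH and normoxic flies of either genotype. The ranges were 2.95 to 4.09 in CH-dmDys and 5.76 to 10.34 in normoxic dmDys, and 4.51 to 6.78 in CH-WT and 6.97 to 7.34 in normoxic WT. A fit with it as a covariate therefore cannot tell it apart from CH. With this measure as a covariate, 29 probe sets of the array were called in CH-dmDys against normoxic dmDys, and they held Hsp22 (probe set 1), Hsp23, Hsp26 and Hsp27, at -3.91, -3.08, -3.77 and -2.15. Hsp67Bc was then at -1.49 and Hsp22 probe set 2 at -0.78, and neither was called. In CH-WT against normoxic WT the covariate left Hsp26 at 2.46, Hsp22 (probe set 1) at 2.43, Hsp23 at 1.58 and Hsp27 at 1.57. Within normoxic dmDys flies the measure ran from 5.76 in replicate 8 to 10.34 in replicate 7, and Hsp26 read 14.47 and 14.33 in these flies. In normoxic dmDys replicates 8, 10, 6 and 7, in the order of the measure, Hsp27 read 13.77, 13.81, 13.94 and 14.00, Hsp22 (probe set 1) 13.76, 13.40, 13.19 and 13.28, and Hsp67Bc 5.10, 4.09, 6.02 and 7.07, so not all members read alike across these flies. Normoxic WT flies had 3' minus 5' values of 6.97 to 7.34, inside the range of normoxic dmDys, and their Hsp26 lay between 9.66 and 9.98. Whether the measure has a part in the levels was not tested.

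**Figure D5:**
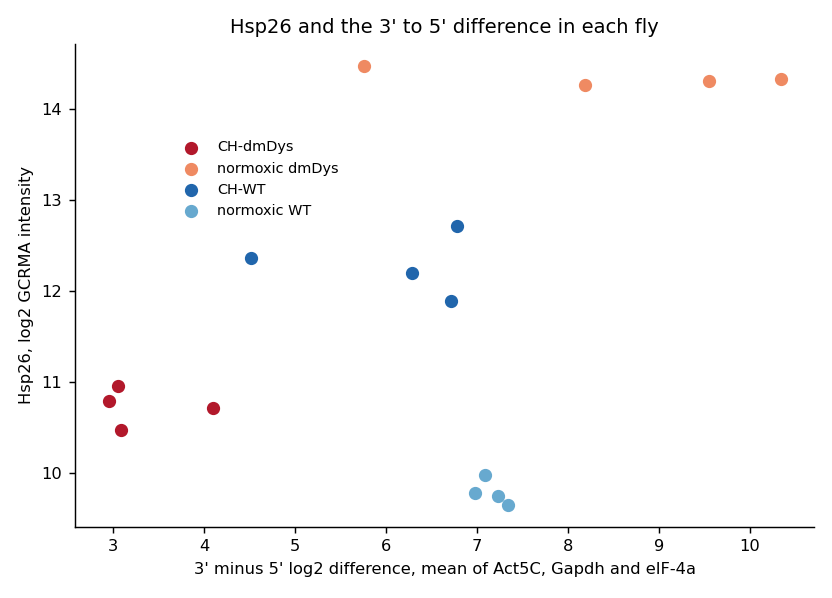
Hsp26 log2 GCRMA intensity (vertical axis) against the mean 3' minus 5' log2 difference of 3 control transcripts (horizontal axis) in each of the 16 flies, coloured by group. Normoxic dmDys flies, at 5.76 to 10.34 on the horizontal axis, read 14.26 to 14.47, between percentiles 98.92 and 99.18 of their arrays. Normoxic WT flies, at 6.97 to 7.34, read 9.66 to 9.98. Not all members read like Hsp26 across normoxic dmDys flies, and a part of the measure in the levels was not tested.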

How the data were processed

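The values deposited by the authors are intensity on a linear scale, 1 column for each of 16 single flies, on Affymetrix Drosophila Genome 2.0 arrays after amplification of poly(T)-primed cDNA with the NuGEN system. The authors made them with GCRMA from the image files in GeneSpring. Log2 was taken without an offset. Whether dmDys and WT arrays were normalized together is not given in the sources used here. The arrays hold 18952 probe sets, and 62 that read no fly gene were not tested. The array annotation gives 1 symbol for 13646 probe sets, several for 402 and none for 4842. Hsp23 and Hsp67Bc are not in it and were named from the study's own gene lists. Array number, 4 per group, limits the precision, and p-values measure the spread between single flies. CH-dmDys flies shared a single climb, and the number of chamber runs is not given in the sources used here. The spread between flies therefore does not cover differences between repeated exposures. Groups follow the titles of the samples.

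Each pair of groups was fitted on its own 8 arrays with limma 3.58.1 (R 4.3.3; lmFit and eBayes), and the interaction on all 16, in place of the SAM test of the authors. Calls needed a log2 difference of at least 1 and an adjusted p under 0.05 (Benjamini-Hochberg, 18890 probe sets). The fits of pairs of groups were tested on simulated data, and the interaction was not. Every probe set of the 7 genes is described, with list genes called in CH-dmDys against normoxic dmDys and the 5 probe sets nearest in pattern. Hsf, the probe set of Hsp70Bb and Hsp70Bc, CG4461 and CG13133 were named after their values were seen. The members and lists were chosen with earlier results of these data known. Alternatives covered normalization, a floor, filters, moderation, array weights, the 3' to 5' measure, single flies left out and a replicate block; leaving out the 2 WT flies that lacked testis transcripts was added for the gene lists after seeing the data. Promoter and protein sequences were not analysed here.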

Additional observations from a re-analysis of the deposited data

Results flagged for a closer look

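In 36 combinations of a probe set and a group, 4 flies lay far from the rest of their group; chance gives about 1 in 20. In normoxic WT, replicate 5 had 7.10 for Hsp22 probe set 2, the fly with a testis median of 2.24. In CH-WT, replicate 5 had 11.55 for Hsp23. Hsp67Bc read 2.16 in CH-dmDys replicate 8, and l(2)efl probe set 3 read 2.26 in CH-WT replicate 7, both at the background of the array.

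The difference under CH in dmDys flies minus that in WT flies was called in limma's interaction for Hsp22 (probe set 1, -5.90), Hsp23 (-4.56), Hsp26 (-6.10), Hsp27 (-4.18) and Hsp67Bc (-5.96) on the log2 scale.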

How the results depend on the processing

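Of 756 repeated differences of single probe sets, 686 moved by less than the spread between flies, 70 moved by more, and no called difference changed sign. Single flies left out gave 432 of the 756, and none moved. Leaving out 1 of 4 flies can hardly shift a mean by that much, so these say little. Of 45 differences in each setting, 20 moved with quantile normalization and 16 with the 3' to 5' covariate. Array weights moved 15, centring on the array median 12 and the floor 7. Of 9 probe sets, CH-dmDys against normoxic dmDys called 6, and each fly left out in turn gave 6 to 6. With a replicate block 1 was called there (Hsp27), with 12 on the whole array and 0 of the 7 other inducible heat shock probe sets (5 without it), 0 in CH-WT against normoxic WT and, in a block added after seeing the data, 5 in CH-dmDys against CH-WT. Deviations of same-numbered flies from their group means correlated at -0.19, -0.03 and 0.11 in dmDys and at 0.67, -0.88 and 0.61 in WT. Between the CH groups they correlated at -0.10, 0.13 and -0.12. The -0.88 belongs to replicate 5, whose normoxic WT fly lacked testis transcripts. With so few shared numbers, these values neither show nor exclude that the numbers pair the flies. No paired analysis was possible between the normoxic groups because they share 1 number.

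CH-WT against normoxic WT called 0 (0 to 0 with single flies left out), but 2 with quantile normalization, with a trend in the moderation and with array weights, and 4 with 1 fit over all 4 groups. Normoxic dmDys against normoxic WT called 5 (4 to 5), and 3 with the brightest probe set of each gene only. Hsp22 and l(2)efl were lost there, as their brightest probe sets were not called and a dimmer one was. CH-dmDys against CH-WT called 5 (5 to 6), and 3 with array weights, whose estimation did not fully converge in some fits. The interaction called 5 (5 to 5), and 4 with array weights and with the 3' to 5' covariate, where Hsp67Bc was lost in both, and 6 without the 2 WT flies that lack testis transcripts. The mean r within groups of 0.26 ran from 0.20 to 0.30 with single flies left out. The causes of these shifts were not tested. Hsp67Bc in CH-dmDys and l(2)efl probe set 3 lie at the background, so their values there are bounds.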
